A study of Mus musculus with 8 samples.

Results

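The replication-dependent histone genes are the multicopy genes that make the bulk of the linker histone H1 and of the core histones H2A, H2B, H3 and H4. They were taken as every row of the gene count table whose symbol begins with Hist1h, Hist2h, Hist3h or Hist4h, which gave 70 of 39017 genes. By class these were 6 genes of H1, 20 of H2A, 19 of H2B, 12 of H3 and 13 of H4. GENCODE M21 lists 66 of the 70 as protein-coding, Hist1h2aj, Hist1h2al and Hist3h2bb-ps as pseudogenes and Hist2h2bb as non-coding RNA. By the cluster number in the symbol, 56 belonged to Hist1, 10 to Hist2, 3 to Hist3 and 1 to Hist4. RNA had been sequenced from satellite cells, which serve skeletal muscle as stem cells, of adult mice of the genotype Pax3GFP/+, in which 1 allele of Pax3 carries a green fluorescent protein. The cells came from diaphragm and abdominal muscle and were plated at 7500 per dish of 35 mm. For 4 days they were kept either with sal003 (4 libraries) or with its solvent DMSO (4 libraries), and both groups carried the reporter allele. Sal003 is an inhibitor of the dephosphorylation of the translation initiation factor eIF2α, and the title of the series concerns translation that depends on phosphorylated eIF2α. The dose of sal003 reads 10 µM in the design text and 10 mM in the treatment protocol, so it is uncertain. The labels do not say whether the 4 libraries of a group came from separate mice or cultures, so p-values reflect the spread over these libraries, which may be technical.

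Most eukaryotic mRNAs end in a poly(A) tail, whereas mRNAs of replication-dependent histones end just after a short conserved stem-loop. The stem-loop is bound by the protein Slbp, and the pre-mRNA is cut behind it with the help of the U7 small nuclear ribonucleoprotein. Transcription of these genes is driven in S phase by Npat, a substrate of cyclin E and Cdk2, and the mRNAs are degraded when DNA synthesis stops. Here total RNA was depleted of ribosomal and mitochondrial RNA and was not selected by a poly(A) tail, so mRNA with either kind of 3′ end could enter the libraries.

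The stem-loop was searched for in the GENCODE M21 transcripts of the members as a 16-base motif on the transcript strand, beginning with GG, with 6-base arms that pair perfectly around a 4-base loop beginning with TT. It was found in 44 of the 70 members, against 141 of 55380 other genes (0.255%). By class it was found in 4 of 6 genes of H1, 11 of 20 of H2A, 10 of 19 of H2B, 8 of 12 of H3 and 11 of 13 of H4. In the remaining 26 members the annotated transcript held no such letters, which says nothing of the RNA beyond that annotation. The following 6 transcripts show the 6 forms found, with the stem-loop in capitals and 5 bases of the transcript on each side, written as DNA.
Hist1h1e: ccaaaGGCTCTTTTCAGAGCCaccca
Hist1h3c: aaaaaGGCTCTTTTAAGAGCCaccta
Hist2h2ac: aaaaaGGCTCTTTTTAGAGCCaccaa
Hist1h4d: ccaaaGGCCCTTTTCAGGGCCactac
Hist1h4b: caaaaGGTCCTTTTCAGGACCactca
Hist2h4: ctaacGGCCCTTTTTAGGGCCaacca

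The form of Hist1h1e was shared by 26 genes of H1, H2A, H2B and H3, and that of Hist1h3c by 6 genes of H1, H2B and H3. The loop of Hist2h2ac was found in no other member of those 4 classes. All 11 genes of H4 with a stem-loop had arms that differed from those of the other classes: 7 had the form of Hist1h4d, 2 that of Hist1h4b, and 2 that of Hist2h4, the other being Hist1h4i. On the mm10 build and in GENCODE M21, Hist1h1e lies at chr13:23620629-23622558 on the minus strand, Hist1h3c at chr13:23744973-23745602 on the minus strand and Hist1h4d at chr13:23581598-23582735 on the plus strand. Hist1h4b lies at chr13:23757013-23757409 on the plus strand Hist2h2ac at chr3:96220361-96220880 on the minus strand and Hist2h4 at chr3:96261682-96263311 on the minus strand. Apart from Hist1h2al, which lies elsewhere on chromosome 13, the Hist1 genes span chr13:21715763-23934851 and the Hist2 genes chr3:96219865-96279001.

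Totals ranged from 32753929 to 40234107 counts per library, and levels are given as CPM, the counts of a gene relative to the library total, scaled by the TMM method. DMSO replicate 2 stood apart: 14437 genes had at least 1 count in it, against 16561 to 18076 in the other 7 libraries, and its rank correlation with the other DMSO libraries was at most 0.949, against at least 0.977 among DMSO replicates 1, 3 and 4. All 9 markers listed for satellite cells and myoblasts were detected, with a summed level of 6622 to 7726 CPM in DMSO and 3336 to 3669 CPM in sal003. The immune list summed to 2.16 to 5.82 CPM over all libraries, with Ptprc, Cd3e and Lyz2 at 0, and the endothelial list to 0.890 to 6.44 CPM, with Emcn, Tie1 and Cldn5 at 0. The list for smooth muscle and pericytes summed to 1717 to 1902 CPM in DMSO and 538 to 734 CPM in sal003, with Cnn1 at 0, that for fibro-adipogenic cells to 223 to 262 and 190 to 212 CPM, with Dpt, Dcn and Lum at 0, and that for Schwann cells and glia to 119 to 166 and 77.5 to 90.3 CPM, with S100b at 0. Acta2 made up most of the smooth muscle sum, with means of 1545 CPM in DMSO and 470 CPM in sal003. Gsn and Col3a1 made up most of the fibro-adipogenic sum and Ngfr most of the Schwann cell sum. Such sums follow a few abundant genes and do not measure shares of cells. The part of these marker shifts in the results below was not tested.

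Histone mRNA was higher in the sal003 libraries. The 70 genes together reached 2960, 2820, 2705 and 2440 CPM in DMSO replicates 1 to 4 and 4429, 4872, 5411 and 6498 CPM in sal003 replicates 1 to 4. The lowest sal003 library was thus above the highest DMSO library, and the mean of 5303 ± 892 CPM (SD, n = 4) was 1.94 times the DMSO mean of 2731 ± 220 CPM (SD, n = 4). Without TMM scaling the mean level was 5624 ± 876 CPM with sal003, against 2570 ± 237 CPM with DMSO (SD, n = 4 each). In counts, histone genes took up 0.562% ± 0.0876 of a sal003 library and 0.257% ± 0.0237 of a DMSO library (SD, n = 4 each). In bulk RNA, a larger share of cells that express these genes and more histone mRNA per cell cannot be told apart.

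Gene by gene, 66 of the 70 members passed the filter on low counts. With edgeR's quasi-likelihood test, adjusted by Benjamini-Hochberg over all 15816 tested genes, 42 of the 66 rose at an adjusted p below 0.05, 0 fell and 24 did not pass. At an unadjusted p below 0.05, 55 were higher and 0 lower, and the calls were 48 higher and 0 lower by DESeq2 and 51 and 0 by limma-voom. Of all tested genes 10.6% rose and 12.2% fell. The estimate was above 0 for 66 of 66 members, against 49.8% of all tested genes, and the 4 sal003 libraries lay above the 4 DMSO libraries in 38 members, against 13.1% of all tested genes. Hist2h2be and Hist1h2aj, neither of which passed the threshold, had estimates below 0 in some of the alternative fits. The median log2 fold change over the 66 members was 0.95, with a range of 0.13 to 1.61, while the median of all tested genes was -0.0034. Of 63 tested protein-coding members 41 rose, with a median of 0.97, and of 3 tested non-coding members 1 rose, with a median of 0.33. Leaving out each library in turn gave between 35 and 51 members that rose. The lower number came without DMSO replicate 4 or without sal003 replicate 4, the higher without DMSO replicate 2, and 32 members passed with all libraries and in each of these 8 fits.

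**Figure D1:**
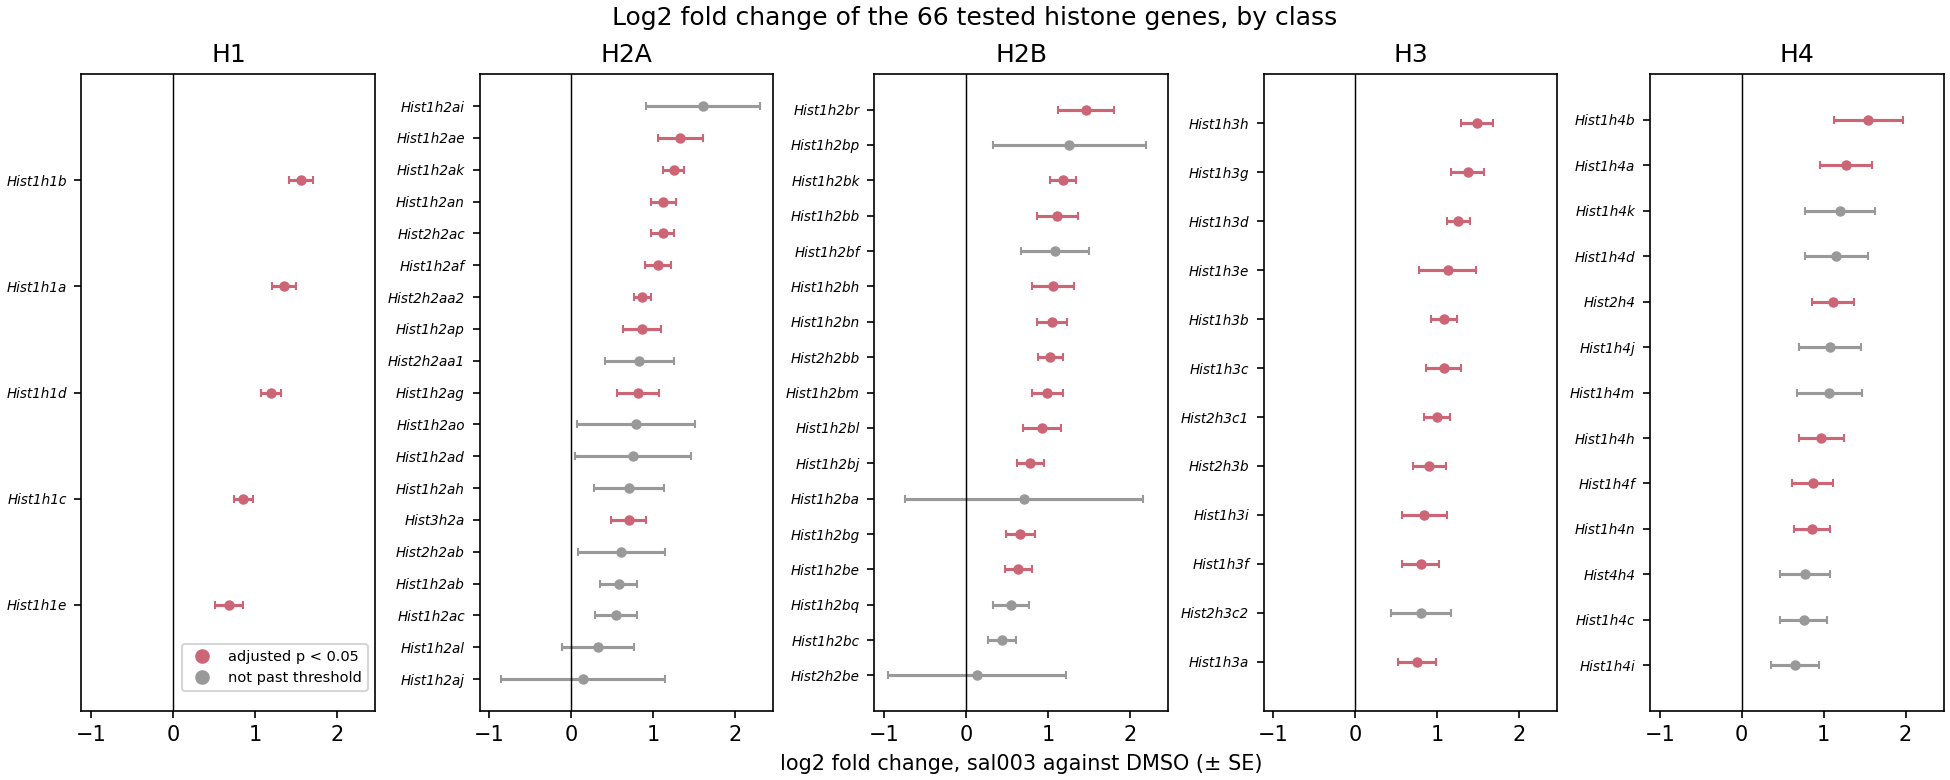
Log2 fold change (x axis, sal003 against DMSO) of the 66 tested histone genes (y axis), in 1 panel per class. Points are estimates and bars are standard errors, with red for an adjusted p below 0.05 and grey for genes not past it. Every point lies to the right of 0, from 0.13 for Hist2h2be to 1.61 for Hist1h2ai, and the widest bars belong to grey points.

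The 4 untested members were near or at 0. Hist1h1t, the testis linker histone, had 0 counts in all 4 DMSO libraries, where 3 counts would correspond to 0.0789 to 0.0959 CPM. In sal003 replicates 1 to 4 it had 24, 24, 38 and 0 counts, and without sal003 replicate 4 it passed the filter and was called higher. Hist1h2aa had 12 counts in sal003 replicate 1 and 0 in the other libraries, and Hist3h2ba had 2 counts in DMSO replicate 4 and 0 elsewhere. The pseudogene Hist3h2bb-ps reached at most 0.463 CPM, in sal003 replicate 4.

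The summed level was higher with sal003 in each class, and differences between classes were not tested. Its ratio of sal003 to DMSO was 1.97 for H1, 1.91 for H2A, 1.84 for H2B, 2.09 for H3 and 2.05 for H4. As a share of all histone CPM, H1 took 31.0% ± 5.96 of histone CPM in DMSO and 31.4% ± 2.22 in sal003, H2A 33.7% ± 1.33 and 33.3% ± 0.913, H2B 19.3% ± 1.84 and 18.3% ± 1.03, H3 9.23% ± 1.46 and 9.95% ± 0.766, and H4 6.80% ± 2.06 and 7.07% ± 0.899 (SD, n = 4 each). In each class the difference between groups was smaller than the SD in DMSO.

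**Figure D2:**
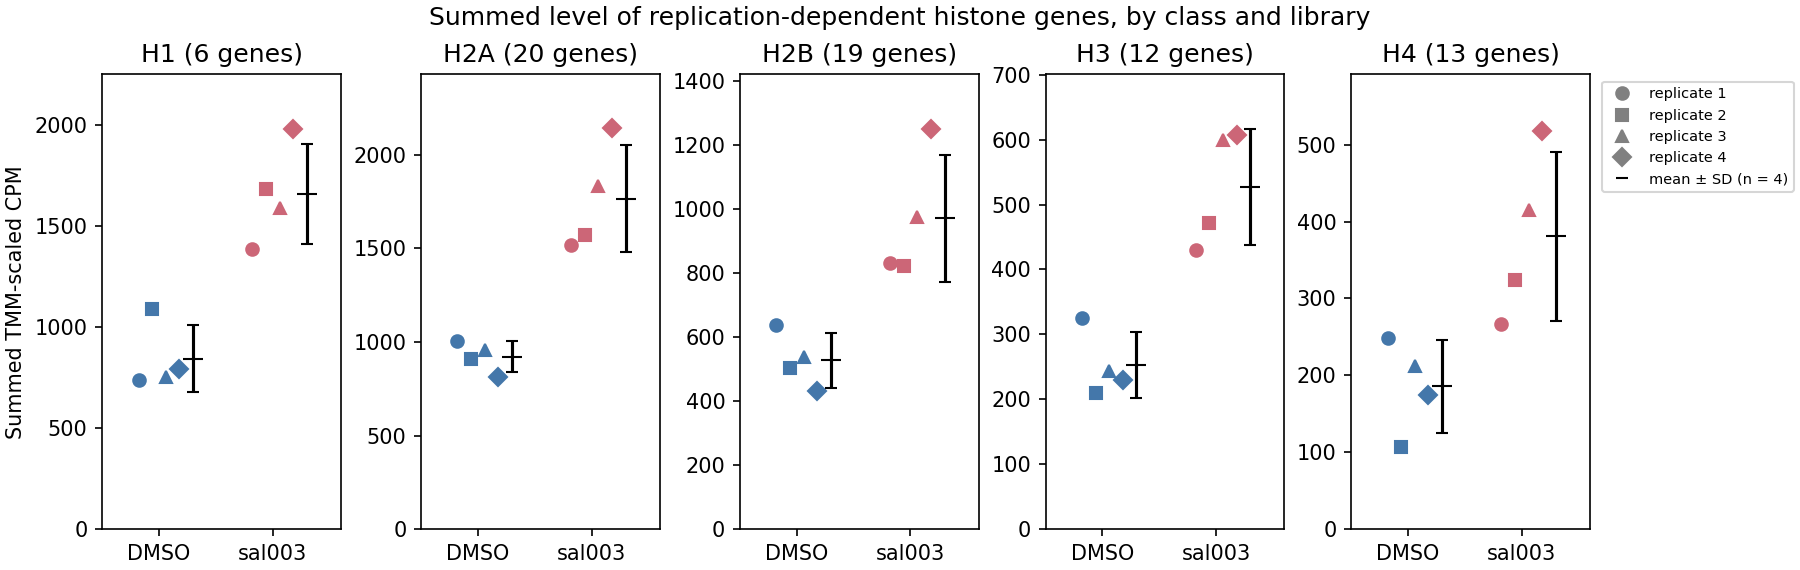
Summed TMM-scaled CPM (y axis, from 0) of the members of each class in the DMSO and sal003 libraries, with 1 symbol per replicate number and bars for mean ± SD (n = 4). In each panel all 4 sal003 points lie above all 4 DMSO points; the gap is narrowest for H4, where DMSO replicate 1 reached 249 CPM and sal003 replicate 1 was at 266 CPM.

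H1 binds the linker DNA between nucleosomes, and all 5 tested H1 genes rose, with a median log2 fold change of 1.19. Hist1h1b rose most, from 68.7, 88.5, 56.9 and 70.1 CPM in DMSO replicates 1 to 4 to 183, 203, 187 and 266 CPM in sal003 replicates 1 to 4 (log2 fold change 1.56 ± 0.15 SE, edgeR adjusted p = 1.38e-06). Hist1h1d had 170, 241, 173 and 185 CPM in DMSO and 381, 441, 424 and 510 CPM in sal003 (1.19 ± 0.12, edgeR adjusted p = 2.16e-06). For both genes the groups were far apart, and DMSO replicate 2 was the highest DMSO library. Hist1h1c had 161, 200, 178 and 181 CPM in DMSO and 265, 317, 318 and 399 CPM in sal003, again without overlap (0.85 ± 0.11, edgeR adjusted p = 4.27e-05). Hist1h1e, the H1 gene with the highest CPM, overlapped between groups: DMSO libraries were at 297, 507, 302 and 308 CPM and sal003 libraries at 461, 605, 543 and 653 CPM. Its log2 fold change was 0.68 ± 0.17 with an edgeR adjusted p of 0.0151, and without DMSO replicate 4 the adjusted p was 0.0562. On the same strand, the annotated transcripts of Hist1h2be extend over Hist1h1e, so reads of this pair cannot be separated with certainty.

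H2A and H2B form the dimers that flank the H3-H4 tetramer of the nucleosome. Of 19 tested H2A genes 9 rose, with a median log2 fold change of 0.81 over the 19. The pseudogenes Hist1h2aj and Hist1h2al are among the 19, and neither passed. Hist2h2aa2 had the highest level per length of any member, with a mean of 892 RPKM (CPM per kilobase of annotated exon) in DMSO and 1626 RPKM in sal003. In CPM it stood at 549, 549, 536 and 456 in DMSO and at 825, 844, 988 and 1154 in sal003, with no overlap (0.87 ± 0.11, edgeR adjusted p = 1.98e-05). Of its 50-base windows, 89.4% also occur in other genes, chiefly in its copy Hist2h2aa1, for which the share was 100%, so the counts of this pair are uncertain. Hist2h2ac, from the same cluster, had 171, 137, 181 and 135 CPM in DMSO and 288, 289, 337 and 435 CPM in sal003 (1.11 ± 0.14, edgeR adjusted p = 3.19e-05). Here too all sal003 libraries were above all DMSO libraries.

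Among the H2A genes of the Hist1 cluster, Hist1h2af had 77.5, 48.5, 57.1 and 47.8 CPM in DMSO and 98.0, 116, 120 and 145 CPM in sal003 (1.05 ± 0.16, edgeR adjusted p = 1.55e-04). Hist1h2ae had the largest rise of the H2A genes past the threshold, from 5.40, 7.77, 4.35 and 5.39 CPM to 12.1, 12.8, 13.4 and 19.3 CPM (1.33 ± 0.27, edgeR adjusted p = 0.00188). Neither gene showed overlap between groups. The largest estimate of all members, 1.61 ± 0.70 for Hist1h2ai, did not pass (edgeR adjusted p = 0.130). Its sal003 libraries were at 7.89, 7.64, 8.37 and 11.3 CPM and its DMSO libraries at 3.36, 0.0890, 3.64 and 4.44 CPM, so that the spread lay mostly in DMSO replicate 2. Hist1h2ai was chosen for mention after its values were seen, and without that library it passed.

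Of 17 tested H2B genes 11 rose, with a median log2 fold change of 0.99 over the 17. Hist2h2bb, the H2B gene with the highest CPM, had 129.5, 83.5, 104 and 92.6 CPM in DMSO and 188, 170, 202 and 275 CPM in sal003 (1.03 ± 0.16, edgeR adjusted p = 2.46e-04). The groups did not overlap. GENCODE M21 lists this gene as a long intergenic non-coding RNA. Hist1h2bn had 60.1, 38.7, 53.4 and 41.1 CPM in DMSO and 77.8, 84.4, 101 and 136 CPM in sal003 (1.05 ± 0.18, edgeR adjusted p = 6.39e-04). Hist1h2bg had 70.4, 73.8, 69.4 and 37.7 CPM in DMSO and 90.7, 94.1, 104 and 108 CPM in sal003 (0.66 ± 0.17, edgeR adjusted p = 0.0122). Both were higher in every sal003 library, and in Hist1h2bg DMSO replicate 4 was far below the other DMSO libraries. The largest rise of the class was in Hist1h2br, from 13.8, 3.44, 8.55 and 10.7 CPM to 22.0, 17.7, 26.2 and 34.3 CPM (1.46 ± 0.34, edgeR adjusted p = 0.00658). The smallest estimate of any member was in Hist2h2be, at 0.631 to 2.40 CPM in DMSO and 0.0245 to 2.39 CPM in sal003 (0.13 ± 1.08, edgeR adjusted p = 0.962), so at this depth a change of the median size was not detectable there.

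H3 carries many of the regulated tail modifications, and 11 of its 12 genes rose, with a median log2 fold change of 1.04 over the 12. Hist1h3b, the H3 gene with the highest CPM, had 82.2, 49.3, 54.0 and 55.7 CPM in DMSO and 107, 120, 132 and 150 CPM in sal003 (1.08 ± 0.15, edgeR adjusted p = 9.66e-05). Hist1h3c had 39.2, 18.2, 28.2 and 31.4 CPM in DMSO and 50.7, 51.2, 80.7 and 64.5 CPM in sal003 (1.08 ± 0.21, edgeR adjusted p = 0.00181). In both, no sal003 library reached down to a DMSO library. Hist1h3h rose most, from 15.1, 10.1, 11.05 and 10.6 CPM to 25.1, 36.1, 36.7 and 33.4 CPM (1.49 ± 0.20, edgeR adjusted p = 3.70e-05). Hist2h3c1, the H3 gene of the Hist2 cluster with the lowest p, had 33.8, 26.3, 21.9 and 27.1 CPM in DMSO and 47.3, 48.4, 63.6 and 57.9 CPM in sal003 (0.99 ± 0.16, edgeR adjusted p = 2.25e-04). These groups were separate as well. The 1 H3 gene that did not pass was Hist2h3c2, at 2.55 to 7.0 CPM in DMSO and 5.74 to 11 CPM in sal003 (0.80 ± 0.37, edgeR adjusted p = 0.150). Without sal003 replicate 4 the number of H3 genes that rose was 7.

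H4 pairs with H3 at the centre of the nucleosome, and 6 of its 13 genes rose although its median log2 fold change, 1.07, was as large as that of H3. The DMSO libraries of H4 were the most spread of any class, with a coefficient of variation of the summed level of 32.6%, against 9.01% for H2A. Hist1h4b rose most, from 9.46, 1.54, 9.05 and 8.92 CPM in DMSO to 18.5, 18.3, 24.5 and 23.4 CPM in sal003 (1.55 ± 0.42, edgeR adjusted p = 0.0184). The groups did not overlap, and DMSO replicate 2 lay far below the other DMSO libraries. Hist2h4 had 10.6, 11.7, 16.8 and 9.52 CPM in DMSO and 18.1, 21.4, 26.5 and 39.0 CPM in sal003 (1.11 ± 0.26, edgeR adjusted p = 0.00459). Hist1h4h overlapped between groups, with 37.0, 19.8, 25.7 and 20.8 CPM in DMSO and 30.1, 44.2, 51.7 and 76.8 CPM in sal003 (0.97 ± 0.27, edgeR adjusted p = 0.0209). It no longer passed without DMSO replicate 2 (adjusted p = 0.0608), 3 (0.0577) or 4 (0.0684) or without sal003 replicate 4 (0.0522).

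Both of the other H4 genes with high CPM missed the threshold. Hist1h4d had 32.0, 7.59, 26.1 and 25.0 CPM in DMSO and 38.1, 38.6, 60.1 and 65.4 CPM in sal003 (1.16 ± 0.38, edgeR adjusted p = 0.0561). Hist1h4m had 31.6, 7.59, 25.4 and 21.5 CPM in DMSO and 25.8, 41.9, 57.0 and 56.1 CPM in sal003 (1.07 ± 0.40, edgeR adjusted p = 0.0868). In each, DMSO replicate 2 was far below the other 3 DMSO libraries, and only Hist1h4m overlapped between groups. Without DMSO replicate 2, Hist1h4d had a log2 fold change of 0.88 with an edgeR adjusted p of 6.02e-04 and Hist1h4m one of 0.80 with 0.0126, and 10 of the 13 H4 genes rose. Without sal003 replicate 1 the number was also 10.

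DMSO replicate 2 departed from the other DMSO libraries, by medians that differed between classes and with a wide spread within most classes. On the scale of log2(CPM + 0.5), its median difference from the mean of the other 3 was 0.44 over the 5 tested H1 genes, -0.018 over 19 of H2A, -0.41 over 17 of H2B, -0.28 over 12 of H3 and -1.15 over 13 of H4, against -0.10 over all tested genes. It was the highest DMSO library in 5 of 5 H1 genes and the lowest in 10 of 13 H4 genes, while it was the lowest in 39.9% of all tested genes. Of the 19 H2A genes it was the lowest in 7 and the highest in 9. Within classes the difference from the other 3 ran from 0.20 to 0.74 in H1 and from -2.87 to 1.67 in H2A. In H2B it ran from -2.83 to 0.57, in H3 from -1.51 to 0.73 and in H4 from -2.24 to 0.42. Over the 66 members, this difference had a Spearman correlation of 0.20 with annotated length, -0.034 with GC content and 0.26 with mean CPM, given as a description, since members share sequence and the library. Without this library 51 members rose: 41 of the 42 above, without Hist1h4h, and 10 more.

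**Figure D3:**
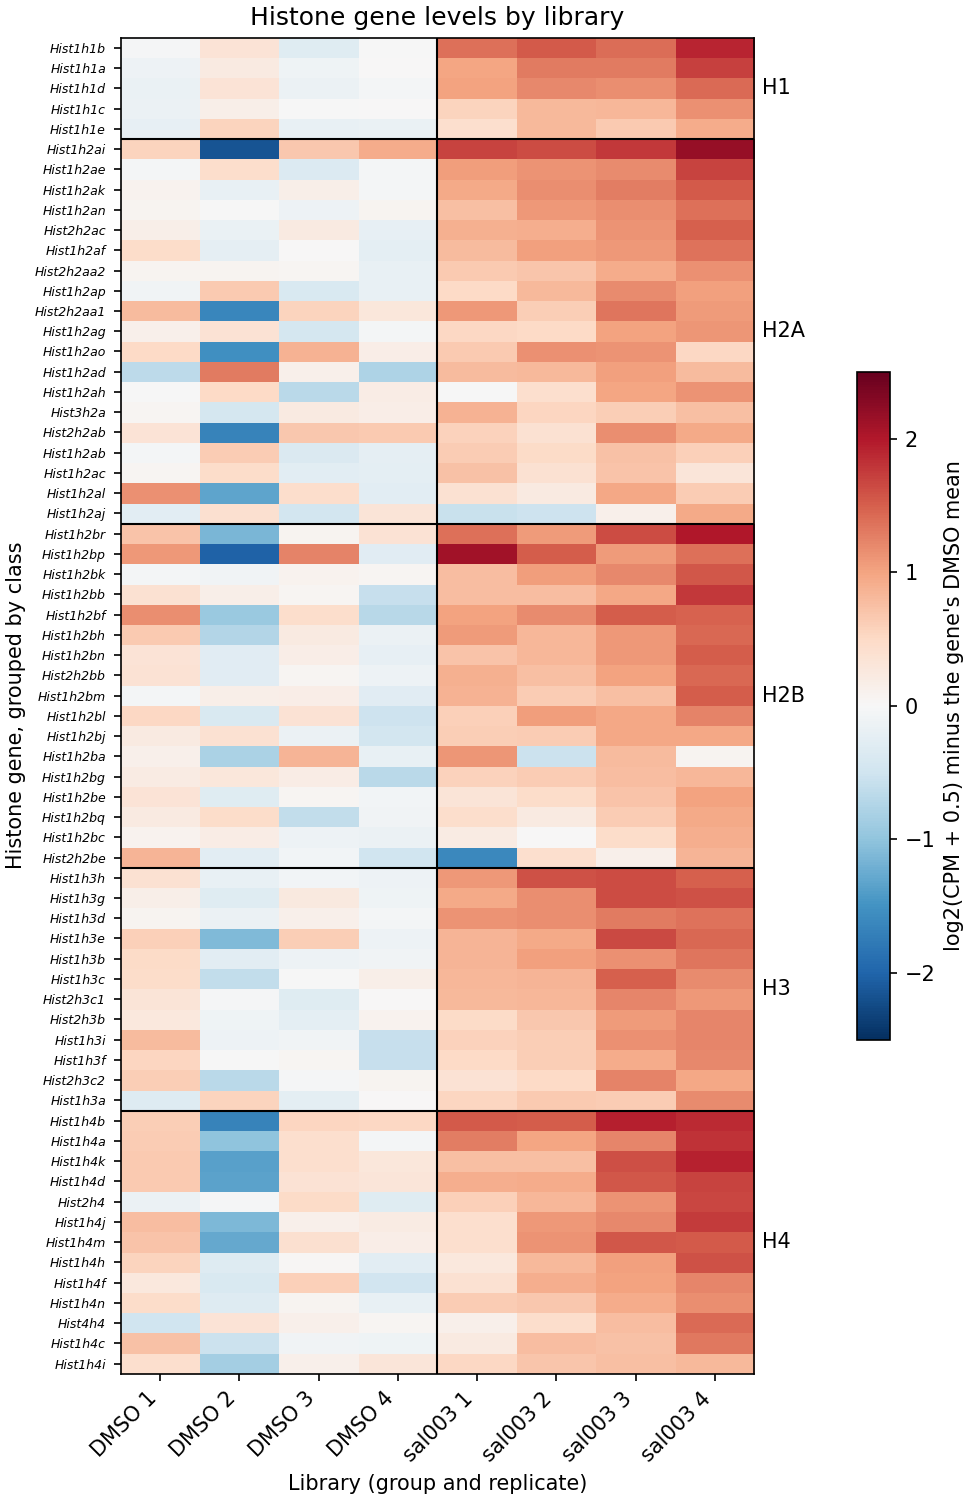
Level of each tested histone gene (rows, grouped by class and ordered by log2 fold change) in each library (columns), as log2(CPM + 0.5) minus the gene's mean over the 4 DMSO libraries, with red above and blue below that mean. The sal003 columns are mostly red and deepest in replicate 4, and DMSO replicate 2 is pale red in the 5 H1 rows and blue in most H4 rows.

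Within the sal003 group the members also shared an order of libraries. Sal003 replicate 4 was the highest sal003 library in 45 of the 66 members and sal003 replicate 1 the lowest in 45, against 28.3% and 25.2% of all tested genes. For H1 both held in 5 of 5 genes, and for H3 replicate 1 was the lowest in 12 of 12. The replicate numbers are labels without an order, and members share sequence, so this is a description of these libraries. The coefficient of variation of the summed histone level was 8.06% in DMSO and 16.8% in sal003, against 3.78% and 2.39% for a list of 43 DNA replication genes.

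By cluster, genes rose both among the Hist1 genes on chromosome 13 and among the Hist2 genes on chromosome 3. Of 54 tested Hist1 genes 35 rose, with a median log2 fold change of 1.02, and of 10 Hist2 genes 6 rose, with a median of 0.88. Their summed levels were 1.96 and 1.92 times as high in sal003 as in DMSO. The Hist2 genes contributed a mean of 857 ± 80.6 CPM to DMSO libraries and 1644 ± 291 CPM to sal003 libraries (SD, n = 4 each), most of it from Hist2h2aa2 and Hist2h2ac. In the Hist3 cluster on chromosome 11, Hist3h2a was the only gene tested, with 11.9, 8.30, 13.5 and 12.8 CPM in DMSO and 21.4, 16.7, 17.9 and 19.5 CPM in sal003 (0.70 ± 0.21, edgeR adjusted p = 0.0258). The groups did not overlap, but it did not pass without sal003 replicate 1, 3 or 4. Hist4h4, alone on chromosome 6, had 5.62, 10.4, 8.87 and 8.42 CPM in DMSO and 8.87, 11.3, 14.2 and 22.6 CPM in sal003 (0.77 ± 0.30, edgeR adjusted p = 0.0856). These groups overlapped, and it passed without DMSO replicate 2 or without sal003 replicate 1.

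Many H2A and H2B genes stand head to head and share the DNA between their starts. There were 15 such pairs of members, 172 to 659 bp apart, of which 14 joined H2A to H2B and 1 (Hist1h2bh and Hist1h3f) H2B to H3. In 13 pairs both genes were tested, and in 5 of these both rose. Over all tested members 42 of 66 rose, so this count alone says nothing of pairing. The median size of the difference between partners in log2 fold change was 0.34. Hist1h2ag and Hist1h2bj had nearly equal estimates of 0.81 and 0.78, whereas Hist2h2ac and Hist2h2be, the pair furthest apart, had 1.11 and 0.13. The SE of Hist2h2be was 1.08, so the gap of 0.99 lies within its error. Partners were not compared with unpaired members.

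Promoters of the classes differ in sequence, and their part in the histone values was not tested. RefSeq promoters on GRCm38.p6, 250 bases before to 50 after the start, were matched for 60 members and searched on both strands for TATAAA as the TATA box, for CCAAT as the CCAAT box, for the octamer ATTTGCAT bound by Pou2f1, for the H4 site GGTCCG within the element known for binding Hinfp, and for AAACACA as the H1 box. The 130 bases before the RefSeq start are printed for 1 gene of each class, with matches in capitals in either orientation. Hist1h1e is from chr13:23622559-23622688 on the minus strand, Hist2h2ac from chr3:96220881-96221010 on the minus strand, Hist2h2bb from chr3:96269570-96269699 on the plus strand, Hist1h3b from chr13:23752215-23752344 on the plus strand and Hist1h4d from chr13:23581438-23581567 on the plus strand.
Hist1h1e: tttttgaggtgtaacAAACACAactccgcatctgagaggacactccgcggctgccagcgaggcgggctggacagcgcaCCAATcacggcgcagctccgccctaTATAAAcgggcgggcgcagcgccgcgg
Hist2h2ac: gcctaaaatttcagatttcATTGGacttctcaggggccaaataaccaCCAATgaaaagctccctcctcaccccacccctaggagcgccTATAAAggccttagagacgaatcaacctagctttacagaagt
Hist2h2bb: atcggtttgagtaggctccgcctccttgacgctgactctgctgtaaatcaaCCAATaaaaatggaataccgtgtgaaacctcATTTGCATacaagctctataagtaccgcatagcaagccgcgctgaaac
Hist1h3b: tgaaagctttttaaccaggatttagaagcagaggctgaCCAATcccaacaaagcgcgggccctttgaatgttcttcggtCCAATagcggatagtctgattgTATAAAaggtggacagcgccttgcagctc
Hist1h4d: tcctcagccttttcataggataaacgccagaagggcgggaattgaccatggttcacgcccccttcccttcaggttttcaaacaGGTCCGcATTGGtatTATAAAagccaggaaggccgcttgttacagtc

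GGTCCG was found in 11 of 12 H4 promoters, at a median position of -46 from the start, and in 8.25% of all 32851 RefSeq promoters. AAACACA was found in 5 of 6 H1 promoters, against 7.18% of all promoters. The octamer was found in 7 of 16 H2A and 6 of 16 H2B promoters and in 0 of the H1, H3 and H4 promoters, against 1.74% of all. Windows of head-to-head partners overlap, so 1 site can be counted for both genes. The octamer at -155 of Hist1h2ah and that at -30 of Hist1h2bk are the same bases. Counts for H2A and H2B are therefore not independent, and this holds for CCAAT and TATAAA too. CCAAT was found in all 16 H2A, 16 H2B, 10 H3 and 6 H1 promoters and in 3 of 12 H4 promoters, against 37.4% of all, and TATAAA in 34 of 60, against 13.6%. In 1 promoter 2 matches overlapped. These matches describe letters and not bound sites.

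Genes known to drive histone transcription were examined next. Of the transcription list 5 of 11 genes rose and 0 fell by edgeR, 0 fell also at an unadjusted p below 0.05, by DESeq2 and by limma-voom, with a median log2 fold change of 0.37. Npat had 40.7, 25.6, 48.5 and 48.6 CPM in DMSO and 61.3, 68.7, 54.8 and 70.2 CPM in sal003 (0.64 ± 0.18, edgeR adjusted p = 0.0152), without overlap, and without sal003 replicate 4 its adjusted p was 0.0501. Ccne1, which encodes cyclin E1, had 27.0, 19.9, 26.2 and 26.5 CPM in DMSO and 53.9, 54.0, 54.7 and 45.4 CPM in sal003 (1.06 ± 0.14, edgeR adjusted p = 4.91e-05). Ccne2 (1.38 ± 0.20, edgeR adjusted p = 1.26e-04), the S-phase transcription factor E2f1 (0.96 ± 0.16, adjusted p = 3.87e-04) and Pou2f1 (0.85 ± 0.18, adjusted p = 0.00256) also rose. Hinfp, the factor of the H4 site, did not pass, with a log2 fold change of 0.37 ± 0.24 and an edgeR adjusted p of 0.326.

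Of 19 genes of histone 3′ end processing, 6 rose, 0 fell and 13 did not pass by edgeR, with a median log2 fold change of 0.37. None fell at an unadjusted p below 0.05, by DESeq2 or by limma-voom. Slbp had 30.9, 31.8, 25.3 and 31.4 CPM in DMSO and 50.3, 51.1, 45.8 and 50.8 CPM in sal003 (0.73 ± 0.13, edgeR adjusted p = 6.62e-04). The U7-associated factor Casp8ap2 had 50.6, 49.3, 70.6 and 80.0 CPM in DMSO and 110, 105, 105 and 107 CPM in sal003 (0.77 ± 0.14, edgeR adjusted p = 8.82e-04). Eri1, an exonuclease that trims the histone mRNA end, had 19.0, 20.1, 31.6 and 33.6 CPM in DMSO and 42.2, 41.0, 43.3 and 42.8 CPM in sal003 (0.70 ± 0.18, edgeR adjusted p = 0.0119). For these 3 genes all sal003 libraries lay above all DMSO libraries. Cstf2 (0.64 ± 0.11, adjusted p = 4.12e-04), Snrpf (0.81 ± 0.20, adjusted p = 0.00963) and Cpsf2 (0.37 ± 0.10, adjusted p = 0.0127) were the other 3 that rose by edgeR's test. The U7-specific proteins were low and did not pass: Lsm10 lay between 0 and 3.64 CPM in DMSO and 0.245 and 2.99 CPM in sal003, Lsm11 between 6.55 and 15.4 and between 8.11 and 13.2 CPM, and Zfp473 between 0.178 and 1.23 and between 0.686 and 2.23 CPM. Their edgeR adjusted p-values were 0.997, 0.721 and 0.479.

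Of 9 genes of histone mRNA decay and translation, 0 rose, 1 fell and 8 did not pass, with a median log2 fold change of -0.0043 by edgeR. Since 10.6% of all tested genes rose and 12.2% fell, counts this low in a list of 9 are near those shares. At an unadjusted p below 0.05, 2 were higher, and DESeq2 and limma-voom each called 1 higher, Zcchc11 standing nearest to the threshold in edgeR's test (adjusted p = 0.0553). Ctif, a factor of cap-binding-complex-dependent translation known to work with Slbp on histone mRNA, fell from 157, 156, 140 and 136 CPM to 80.6, 67.4, 89.0 and 83.6 CPM (-0.88 ± 0.11, edgeR adjusted p = 1.58e-05). Its groups did not overlap. Upf1, the helicase that starts histone mRNA decay, had an edgeR adjusted p of 0.450. Eri1, an exonuclease of the histone mRNA end, was counted with 3′ end processing and not in this list.

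**Figure D4:**
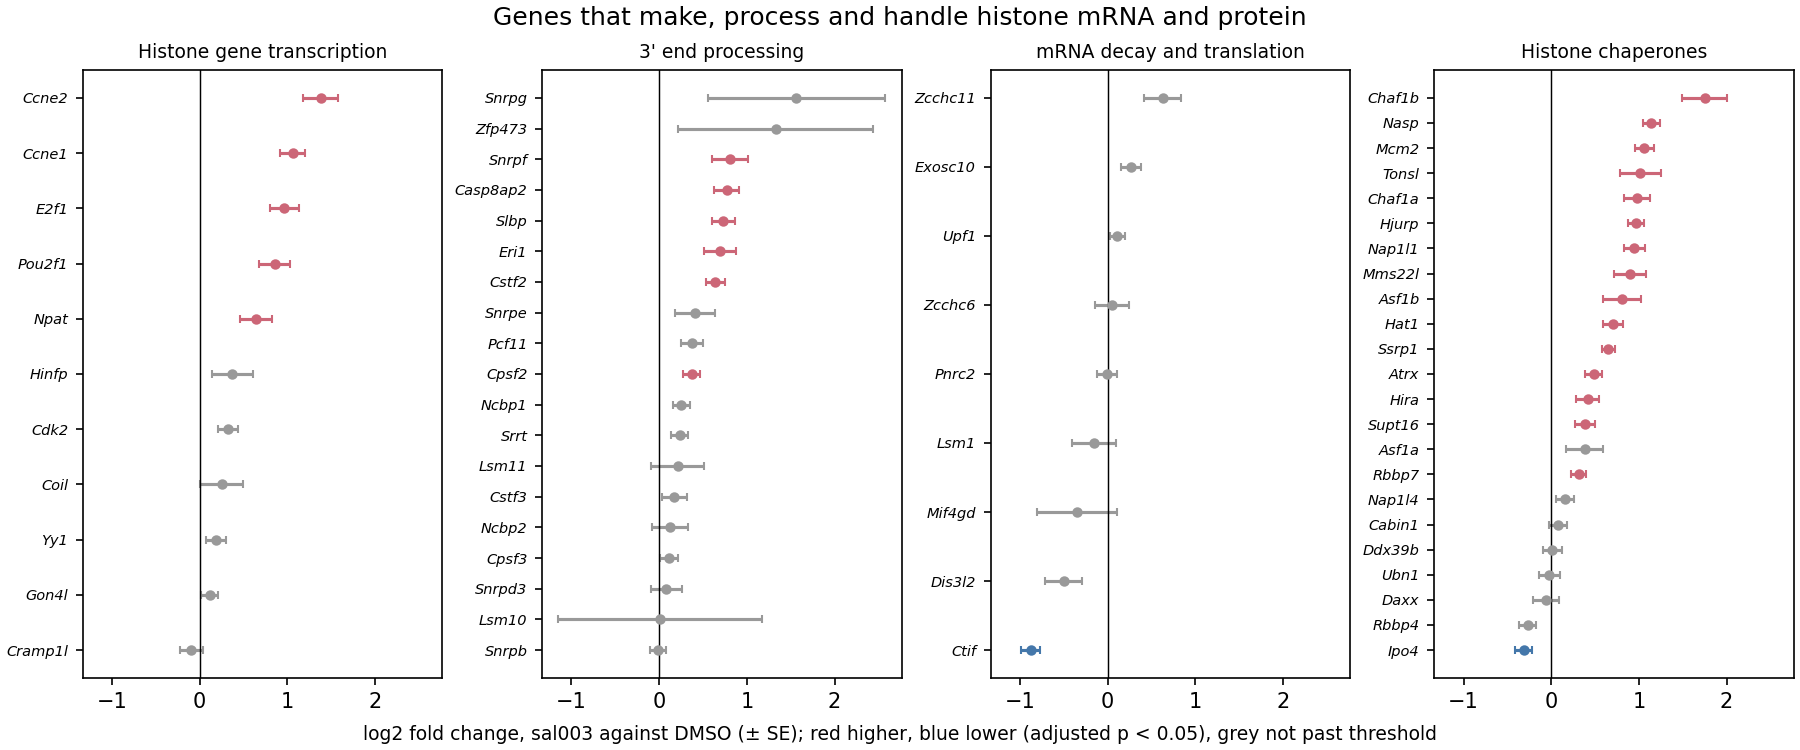
Log2 fold change (x axis, sal003 against DMSO) of genes of histone transcription, 3′ end processing, mRNA decay and translation, and histone chaperones (y axis, 1 panel per list). Points are estimates with standard errors; red marks genes that rose, blue genes that fell and grey genes not past an adjusted p of 0.05. Red points are 5 of 11, 6 of 19, 0 of 9 and 15 of 23, and the blue points are Ctif and Ipo4.

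Of 23 histone chaperones and related factors, which carry histone proteins to DNA, 15 rose and 1 fell by edgeR, with a median log2 fold change of 0.48. At an unadjusted p below 0.05, by DESeq2 and by limma-voom, 15 were higher and 2 lower. Nasp, a chaperone of H1 and of soluble H3-H4, had 138, 121, 154 and 158 CPM in DMSO and 328, 302, 302 and 327 CPM in sal003 (1.14 ± 0.10, edgeR adjusted p = 3.44e-07). All sal003 libraries were more than 100 CPM above the DMSO libraries. Hjurp, the chaperone of the centromeric H3 variant Cenpa (0.97 ± 0.09, edgeR adjusted p = 1.10e-06), Mcm2, a replicative helicase subunit that also binds H3-H4 (1.06 ± 0.11, adjusted p = 2.61e-06), and the FACT subunit Ssrp1 (0.65 ± 0.08, adjusted p = 1.40e-05) rose. Chaf1b, a subunit of the replication-coupled chromatin assembly factor, had the largest estimate of the list (1.75 ± 0.26, edgeR adjusted p = 1.11e-04). The gene that fell by edgeR was the importin Ipo4 (-0.31 ± 0.10, edgeR adjusted p = 0.0336), and it passed in only 1 of the 8 fits that left out a library, that without DMSO replicate 4. Rbbp4 did not pass (-0.27 ± 0.10, edgeR adjusted p = 0.0653), although all its sal003 libraries lay below all its DMSO libraries. Chaf1b, Ipo4 and Rbbp4 were chosen for mention after their values were seen.

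Histone genes were set beside 3 other lists. Of 43 DNA replication genes 38 rose and 0 fell by edgeR, 0 fell also at an unadjusted p below 0.05, by DESeq2 and by limma-voom, with a median log2 fold change of 1.01, close to the 0.95 of the histone genes. Their summed level was 2473, 2368, 2387 and 2570 CPM in DMSO and 4665, 4858, 4631 and 4616 CPM in sal003. The ratio of summed histone CPM to summed replication CPM was 1.12 ± 0.116 in DMSO and 1.13 ± 0.206 in sal003 (SD, n = 4 each), a difference smaller than either SD. By library it was 1.20, 1.19, 1.13 and 0.949 in DMSO and 0.949, 1.0, 1.17 and 1.41 in sal003. Among the replication genes, Uhrf1 (1.29 ± 0.09, edgeR adjusted p = 2.97e-08), Mcm6 (1.16 ± 0.09, adjusted p = 1.06e-07) and Lig1 (1.14 ± 0.10, adjusted p = 3.50e-07) had the lowest p-values.

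Replacement histone variants can also be made outside S phase, mostly from mRNA with a poly(A) tail. Of 11 such genes 4 rose, 0 fell and 7 did not pass by edgeR, with a median log2 fold change of 0.33. At an unadjusted p below 0.05, 1 was lower, H2afv, and limma-voom called 1 lower while DESeq2 called 0. H2afx (0.85 ± 0.13, edgeR adjusted p = 1.63e-04), H2afy (0.74 ± 0.11, adjusted p = 8.69e-05), H2afz (0.74 ± 0.18, adjusted p = 0.00717) and H3f3b (0.33 ± 0.10, adjusted p = 0.0225) rose. H3f3b did not pass without DMSO replicate 3 or without sal003 replicate 2, 3 or 4. Cenpa (0.49, edgeR adjusted p = 0.0596), H1f0 (0.35, 0.0716) and H2afv (-0.61, 0.0626) missed the threshold narrowly, and H3f3a had an estimate of -0.16 with an adjusted p of 0.636. H1fx (adjusted p = 0.338), H2afj (0.190) and H2afy2 (0.892) did not pass. Without DMSO replicate 2, Cenpa passed with an adjusted p of 8.90e-05 and H2afv with 0.0247, and both also passed without a filter, by limma-voom and with a replicate block. H2afv passed too with the filter of 10 CPM and without sal003 replicate 3.

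No gene passed the test among small RNA without a poly(A) tail, a list that includes Rpph1 of RNase P and Rn7sk, the 7SK RNA. By edgeR 0 of 11 tested genes rose and 0 fell, also 0 at an unadjusted p below 0.05, with a median log2 fold change of -0.34. The shares over all tested genes were 10.6% and 12.2%. DESeq2 called 0 in either direction and limma-voom called 2 lower, and without sal003 replicate 4 edgeR called 2 lower. The 15 genes in the table summed to 2698, 2134, 2523 and 1784 CPM in DMSO and 1338, 1496, 1970 and 2468 CPM in sal003, so that the groups overlapped and the sal003 mean was 0.796 times the DMSO mean. Within sal003 the libraries stood in the same order, from replicate 1 to replicate 4, as for the summed histone level, while the mean of the group was the lower one here and the higher one for histones. The part of this library order in the histone values was not tested.

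**Figure D5:**
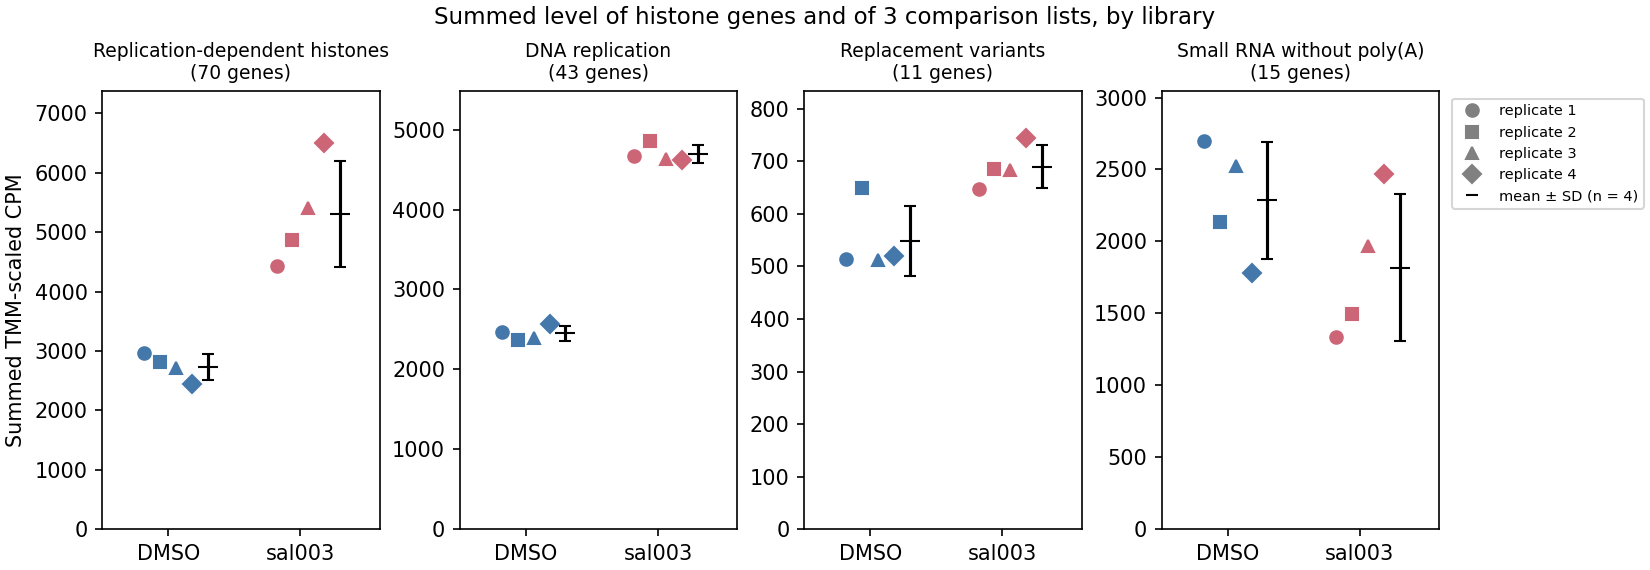
Summed TMM-scaled CPM (y axis, from 0, own scale per panel) of the histone genes, the DNA replication genes, the replacement variants and small RNA without poly(A), by group, with 1 symbol per replicate number and bars for mean ± SD (n = 4). The histone and replication panels have separate groups with ratios of 1.94 and 1.92; the sal003 points are spread for histones (4429 to 6498 CPM) and tight for replication genes (4616 to 4858 CPM).

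Satellite cell markers moved in both directions, with 1 of 9 that rose and 4 that fell, against 10.6% and 12.2% of all tested genes. The myogenic differentiation gene Myog fell from 2363 to 2873 CPM in DMSO to 788 to 926 CPM in sal003 (-1.60 ± 0.09, edgeR adjusted p = 4.58e-09). The stem cell factor Pax7 rose from 65.2 to 80.6 CPM to 95.0 to 101 CPM (0.43 ± 0.10, edgeR adjusted p = 0.00539). Des, Cdh15 and Itga7 also fell, with log2 fold changes of -1.33, -0.92 and -0.56. Myod1 (-0.0064), Pax3 (0.33), Myf5 (0.38) and Vcam1 (0.58) did not pass. Their part in the histone values was not tested.

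Members were last set out by their annotated 3′ end and by the sequence they share with copies. In 22 members the annotated transcript runs on for more than 150 bases after the stem-loop, and 13 of the 20 tested rose, with a median log2 fold change of 0.83. In 22 it ends within 150 bases, and 15 of 22 rose, with a median of 0.92. Of the 24 tested members without a stem-loop in the annotation 14 rose, with a median of 1.04. A share of at least 50% of the 50-base windows of the transcript recurred in other genes for 33 of the 70 members, with class medians of 1.13% for H1, 73.3% for H2A, 43.8% for H2B, 62.0% for H3 and 39.5% for H4. How reads that align to several copies were counted is not given in the sources used here. The split of counts between such copies is therefore uncertain. Over the 66 members the log2 fold change had a Spearman correlation of 0.016 with this share, -0.10 with annotated length, 0.074 with GC content and 0.25 with mean CPM, given as a description.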

How the data were processed

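Total RNA of satellite cell cultures was depleted of ribosomal and mitochondrial RNA and made into stranded libraries with the SMARTer chemistry, per the labels' protocols, with an Illumina MiSeq named as the sequencer. What the authors deposited is a single table with raw read counts for every gene and library. The submitters' processing notes name featureCounts 1.4.4, STAR 2.3.0e, Trimmomatic 0.32 and mm10. How strand, overlapping genes and reads with several alignments were handled is not given in the sources used here. Counts from 1 to 20 were even in 80.5% ± 3.41 of cases in DMSO and 80.2% ± 0.865 in sal003 (SD, n = 4 each), so counts were also halved as an alternative. Replicates differed far beyond counting noise, by a chi-square of at least 25.3 per degree of freedom, and each was counted as 1 sample.

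In R 4.3.3, genes kept by filterByExpr of edgeR 4.0.16 (minimum count 10, minimum total 15) were scaled by TMM, and sal003 was tested against DMSO with glmQLFit (robust) and glmQLFTest, without covariates. The tests were two-sided, p-values were adjusted by Benjamini-Hochberg over all tested genes, and the threshold was 0.05. A standard error (SE) is the log2 fold change divided by the square root of the F statistic. Alternatives were DESeq2 size factors, upper-quartile scaling, no filter, 10 CPM in 4 libraries, the Wald test of DESeq2 1.42.0, voom of limma 3.58.1 with sample weights, a replicate block, removal of the 20 most abundant and the mitochondrial genes, an adjusted p of 0.01 and leaving out each library. Intervals from depth would cover counting error only, since the labels describe no molecular identifiers.

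Class and cluster were read from the symbol. Coordinates, lengths and transcripts come from GENCODE M21, in which 63 members were found by identifier and 7 by symbol. Promoters come from RefSeq on GRCm38.p6, matched through older symbols and overlapping coordinates. Summed levels have no test. The members, gene lists and naming rule were chosen with earlier results of these data known. The rule gives library values for the 3 members with the highest CPM in each class, the largest significant rise and fall, the lowest p of clusters 2 to 4 in each class, fixed genes of the pathway and up to 4 further significant genes per list. Of the lists of 20 genes of 3′ end processing and 12 of transcription, 1 gene each was not matched in the table.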

Additional observations from a re-analysis of the deposited data

Results flagged for a closer look

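In 11 of 138 groups of 4 libraries examined, the highest or lowest library lay apart from the others by Dixon's criterion at the 95% level, and chance alone marks about 1 in 20 groups. DMSO replicate 2 was the library apart in 5. It was the highest for the summed H1 level, at 1090 CPM against 740 to 791 CPM in the other DMSO libraries, for Hist1h1e, at 506.5 CPM against 297 to 308 CPM, and for the summed replacement variants, at 649.1 CPM against 513 to 520 CPM. It was the lowest for Hist1h4b, at 1.542 CPM against 8.92 to 9.46 CPM, and for Ccne1, at 19.93 CPM against 26.2 to 27.0 CPM. DMSO replicate 4 was the lowest for Hist2h2aa2, at 455.8 CPM against 536 to 549 CPM, and for Hist1h2bg, at 37.72 CPM against 69.4 to 73.8 CPM. For Slbp, replicate 3 was the lowest in both groups, at 25.27 CPM against 30.9 to 31.8 CPM in DMSO and at 45.75 CPM against 50.3 to 51.1 CPM in sal003. In sal003, replicate 4 was the lowest for Ccne1, at 45.38 CPM against 53.9 to 54.7 CPM, and replicate 2 for H2afj, at 6.313 CPM against 10.2 to 10.5 CPM.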

How the results depend on the processing

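No histone gene was called lower under any alternative run. The number called higher was 42 with DESeq2 size factors, with upper-quartile scaling and without mitochondrial and abundant genes, 40 without a filter, 44 with the stricter filter or halved counts, 48 by the DESeq2 Wald test, 51 by limma-voom and 29 at an adjusted p of 0.01, with a median log2 fold change between 0.83 and 1.12 over the fits that left out a library. By class and cluster, DESeq2 and limma-voom each called 10 H4 genes, and an adjusted p of 0.01 left 7 of H3, 3 of H4, 23 of Hist1, 0 of Hist3 and 984 genes of the whole table higher. Leaving out 1 library gave 7 to 11 genes of H3, 4 to 10 of H4, 0 to 1 of Hist3 and 0 to 1 of Hist4. The cause was not tested. With the replicate block 44 members rose, 40 of them among the 42, Hist1h4h did not pass (adjusted p = 0.0720) and Hist1h4d did (0.0133). Same-numbered libraries did not deviate together (correlations of -0.017 to 0.079), so the numbers were not taken as pairs. Without a filter Hist1h1e (0.0673), Hist1h4h (0.0592), Hist1h4b (0.0559) and Hist1h3e did not pass, and Hist1h2bc and Hist1h4c did. Estimates that changed sign belonged to genes not past the threshold in either fit: limma-voom gave -0.23 for Lsm10 and -0.069 for H2afy2, and over the fits that left out 1 library the estimate ran from -0.51 to 0.88 for Lsm10, from -0.11 to 0.24 for H2afy2 and from -0.29 to 0.084 for H3f3a. Among the members, Hist2h2be was at -0.82 by limma-voom and below 0 without DMSO replicate 2 (-0.0037), DMSO replicate 4 (-0.073) or sal003 replicate 4 (-0.31), Hist1h2aj was at -0.035 with the block and below 0 without DMSO replicate 3 (-0.052) or sal003 replicate 4 (-0.50), and Hist3h2ba, with 2 counts in all and tested only without a filter, was below 0. Depth limits the 4 untested members and those of a few CPM, such as Hist2h2be. The mouse or culture behind each library, the dose and the counting of multicopy reads limit all values.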
